A study of Homo sapiens with 36 samples.

Results

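The cytosolic HSP90 chaperones, 6 of their co-chaperones and the heat shock transcription factors HSF1 and HSF2 were described here in HEK293 cells, an established human line from embryonic kidney. The 10 genes were taken by name from a deposited count table of 36601 genes. All 10 were above the filter on low counts that left 14892 genes for testing. The study fused endogenous proteins to HaloTag, a tag that binds its ligands covalently, and exposed the cells to HyT36, a hydrophobic HaloTag ligand that makes a tagged protein misfold. Bulk RNA was sequenced in 12 libraries: clone 4 with 25 µM HyT36, clone 4 with DMSO, clone 5 with 25 µM HyT36 and clone 5 with DMSO, with 3 libraries in each group. DMSO was the vehicle, both clones came from the tagged library, and each is a single clone. Cells without a tag were not among the 12 libraries, so an effect of the ligand alone and one that needs the tag cannot be told apart. Exposures of 2 and 12 h stand in the protocols, without saying which was used for bulk RNA. The other 24 of the 36 samples, single-cell and guide libraries, were not analysed here.

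HSP90 is an abundant cytosolic chaperone that uses ATP to close like a clamp around late folding intermediates of protein kinases, steroid hormone receptors and other clients. Co-chaperones deliver clients, set the rate of the ATPase cycle and hold particular states of the clamp. HSF1 is held inactive by chaperones in unstressed cells, and when misfolded proteins engage those chaperones it binds heat shock elements and drives chaperone genes, those of HSP90 among them.

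A heat shock element is built of alternating GAA and TTC units, each set off from the next by a pair of any bases. The letters TTCNNGAA and GAANNTTC, each of which reads the same on both strands, were searched in the 250 bases before each RefSeq transcript start (GRCh38.p14). Such windows were matched for 8 of the 10 genes, 14 in all, and those of FKBP4 and HSF1 were not analysed here. Windows of different starts of AHSA1 overlap each other, as do those of HSF2. The letters occurred in 3 of the 14 windows (21.4%), 1 each of HSP90AA1, HSP90AB1 and CHORDC1, and in 11.6% of all 35116 windows. TTCNNGAA alone was in 6.62% and GAANNTTC alone in 5.78% of all windows, and neighbouring matches can overlap by sharing a unit. The 3 windows each held at least 1 run of 3 alternating units, which 0.441% of all windows did. They are printed 5′ to 3′ on the strand of the gene because they belong to both HSP90 genes and to the co-chaperone gene CHORDC1, whose responses are set side by side in the results on the ligand. Capitals mark the matches. The window of HSP90AA1 is chr14:102087045-102087294 on the minus strand, that of HSP90AB1 is chr6:44247693-44247942 on the plus strand, and that of CHORDC1 is chr11:90223050-90223299 on the minus strand.
HSP90AA1: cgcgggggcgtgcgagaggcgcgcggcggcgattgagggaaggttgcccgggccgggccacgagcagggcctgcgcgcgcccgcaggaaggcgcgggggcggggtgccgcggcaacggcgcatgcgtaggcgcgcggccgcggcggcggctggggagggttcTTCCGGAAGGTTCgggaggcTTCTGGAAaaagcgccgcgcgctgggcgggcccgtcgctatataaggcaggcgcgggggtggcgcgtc
HSP90AB1: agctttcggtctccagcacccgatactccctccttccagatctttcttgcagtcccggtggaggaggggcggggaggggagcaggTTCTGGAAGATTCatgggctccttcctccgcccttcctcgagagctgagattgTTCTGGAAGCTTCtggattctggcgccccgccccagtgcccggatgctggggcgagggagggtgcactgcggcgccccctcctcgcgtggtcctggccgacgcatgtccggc
CHORDC1: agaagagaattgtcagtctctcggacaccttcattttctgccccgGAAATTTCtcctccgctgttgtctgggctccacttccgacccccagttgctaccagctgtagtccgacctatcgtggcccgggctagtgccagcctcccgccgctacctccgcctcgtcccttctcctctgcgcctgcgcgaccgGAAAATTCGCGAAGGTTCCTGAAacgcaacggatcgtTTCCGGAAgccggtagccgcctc
HSP90AA1 had 3 matches, of which the pair at -88 to -76 shares a unit and the other lies at -68 to -61 from the start. HSP90AB1 had 4 matches in a pair of runs, at -165 to -153 and at -112 to -100. For HSP90AA1 and HSP90AB1 the start meant is the most downstream annotated one, at 102087044 and 44247943. Both windows lie inside the annotated gene, and windows before the other starts of these genes had 0 matches. CHORDC1 had 6 matches, 4 of them in 1 run from -60 to -38. A match describes letters only, and no binding was measured.

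**Figure D1:**
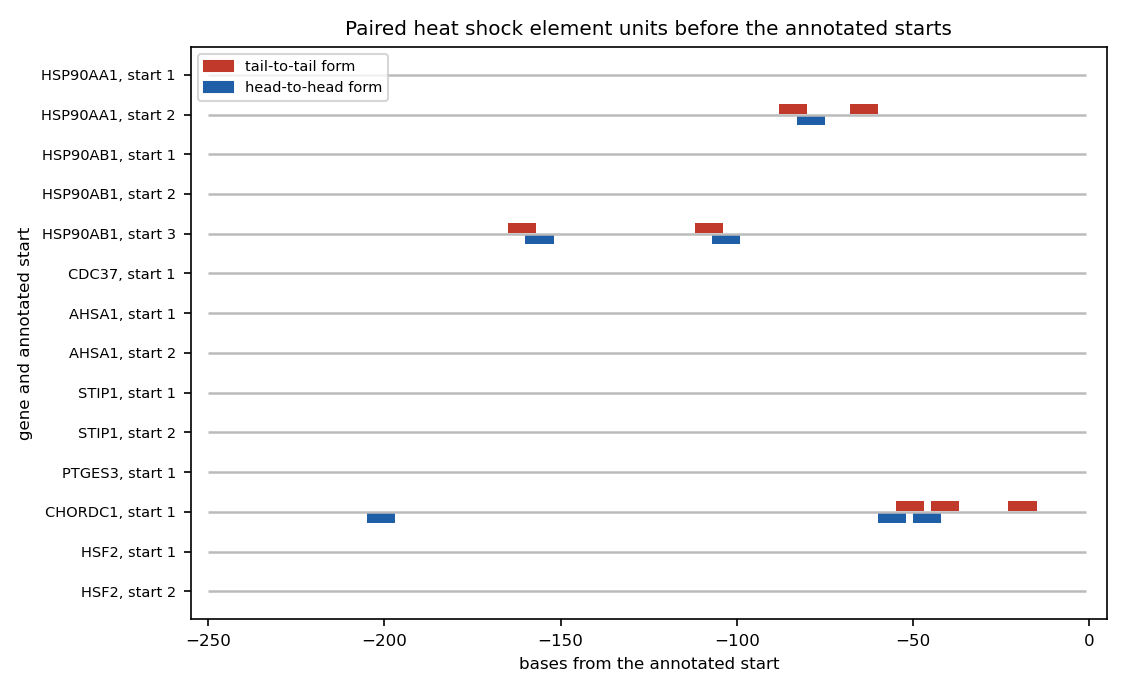
Matches to the paired heat shock element letters in the 250 bases before each annotated start, with distance from the start in bases on the x axis and 1 line for each of the 14 windows. Red boxes above a line are the tail-to-tail form (TTC before GAA) and blue boxes below it the head-to-head form (GAA before TTC). Matches stand on 3 of the 14 lines, with 3 for HSP90AA1, 4 for HSP90AB1 and 6 for CHORDC1.

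Gene counts ranged from 22853946 to 28635511 per library, and the 10 genes took 1.00 to 1.29% of them. Their lowest count in a library was 516 reads, in HSF2. Summed reads of guides named for HDAC2 stood at 2318 to 3504 in clone 4 libraries and 2 to 18 in clone 5. Those named for IGF1R had 2623 to 3806 in clone 5 and 5 to 13 in clone 4. Those named for LRIG1 had 107 to 140 in clone 5 and 0 in clone 4, and guides to HSP90AA1 and HSP90AB1 had 0 reads. The kidney line markers PAX2 (12.2 to 14.8 CPM), LHX1 (11.2 to 18.9 CPM) and VIM (151 to 233 CPM) were present in every library, EYA1 was low (0.146 to 1.69 CPM), and the neurofilament genes NEFL and NEFM were at or near 0. The summed transcripts of 10 epithelial carcinoma markers split the libraries. The sum was 51.2 to 103 CPM in clone 4 HyT36 replicates 2 and 3, clone 4 DMSO replicate 1 and all of clone 5 with DMSO. It was 4.33 to 6.95 CPM in the other 6. Most of the high sums came from KRT19, a keratin gene, with 32.2 to 69.9 CPM in the high libraries and 0.0419 to 0.235 CPM elsewhere. KRT7, another keratin gene, had 5.75 to 14.9 CPM and 0.0434 to 0.335 CPM. The levels of CDH1, ESRP1, ESRP2, CLDN7 and ELF3 were low and overlapped between the high and low libraries. This split coincides in clone 5 with DMSO against HyT36, so the ligand and these transcripts cannot be told apart there, and in clone 4 it crosses the groups. CPM values are counts scaled to the library's gene reads after TMM normalization. No label states that replicates are separate cultures, so tests measure the spread between these libraries.

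With HyT36 the constitutive HSP90 gene HSP90AB1 rose 1.09-fold in clone 4 and 1.10-fold in clone 5, and passed the edgeR test in each. The stress-inducible HSP90AA1 was higher in every HyT36 library than in every DMSO library of its clone by a smaller step that did not pass in either clone alone. No co-chaperone and neither HSF gene passed in either clone. HSP90AB1 was thus 1 of the 10 genes to pass in clone 4, where 5.57% of all genes tested were called (2.21% higher and 3.36% lower), and 1 of 10 in clone 5, where 8.19% were called (3.35% higher and 4.83% lower). With 10 genes these shares cannot be set apart from the background. The median log2 fold change of the 10 genes was 0.03 in clone 4 and 0.03 in clone 5, against 0.00 and -0.00 over all genes tested.

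HSP90AB1 (ENSG00000096384), on chromosome 6 at 44246194 to 44253883, encodes the cytosolic isoform that cells make without stress. It had 5791, 5590 and 5585 CPM in clone 4 with HyT36, against 4930, 5363 and 5239 CPM in clone 4 with DMSO. All 3 HyT36 libraries stood above all 3 DMSO libraries, and the lowest level was that of DMSO replicate 1, the DMSO library with epithelial transcripts. The log2 fold change was 0.13 ± 0.04 (SE; 1.09-fold; edgeR adjusted p = 0.022). In clone 5 the gene had 4080, 3969 and 3799 CPM with HyT36, against 3617, 3489 and 3624 CPM with DMSO. Here too the groups did not overlap, and both stood below every library of clone 4. The log2 fold change was 0.14 ± 0.04 (SE; 1.10-fold; edgeR adjusted p = 0.0062). The clone 4 call was lost without DMSO replicate 1, where the log2 fold change was 0.09 (edgeR adjusted p = 0.080). It was also lost without HyT36 replicate 1, 2 or 3 (edgeR adjusted p = 0.13, 0.058 and 0.070). Within the libraries with few epithelial transcripts the clone 4 log2 fold change was 0.13. HyT36 replicate 1 is the only clone 4 HyT36 library among them, so a test there has little power. With the epithelial marker sum as a covariate the clone 5 value was 0.08 (edgeR adjusted p = 0.23), so the call there was lost. That sum was 51.2 to 71.4 CPM with DMSO and 5.12 to 6.95 CPM with HyT36 in clone 5, and 4.37 to 103 CPM in clone 4 with DMSO. The covariate's slope thus rests mainly on clone 4 and is carried over to clone 5. For any clone 5 response, a call lost with this covariate does not separate the ligand from these transcripts.

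HSP90AA1 (ENSG00000080824), on chromosome 14 at 102080742 to 102139749, encodes the isoform that heat shock induces. It had 4428, 4194 and 4238 CPM in clone 4 with HyT36, against 3957, 4050 and 4100 CPM in clone 4 with DMSO. The clone 5 levels were 3842, 3925 and 3763 CPM with HyT36 and 3659, 3509 and 3702 CPM with DMSO. In both clones the lowest HyT36 library lay above the highest DMSO library. Groups that did not overlap, with HyT36 higher, were found for 2 of the 10 genes in clone 4 (11.7% of all genes tested) and for 3 of the 10 in clone 5 (11.4%), which were both HSP90 genes and, in clone 5, STIP1. The log2 fold changes of HSP90AA1 were 0.09 ± 0.03 in clone 4 (SE; edgeR adjusted p = 0.13) and 0.09 ± 0.03 in clone 5 (SE; edgeR adjusted p = 0.12). Both passed with DESeq2 (adjusted p = 0.033 in clone 4 and 0.018 in clone 5) and with limma-voom (0.043 and 0.041).

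**Figure D2:**
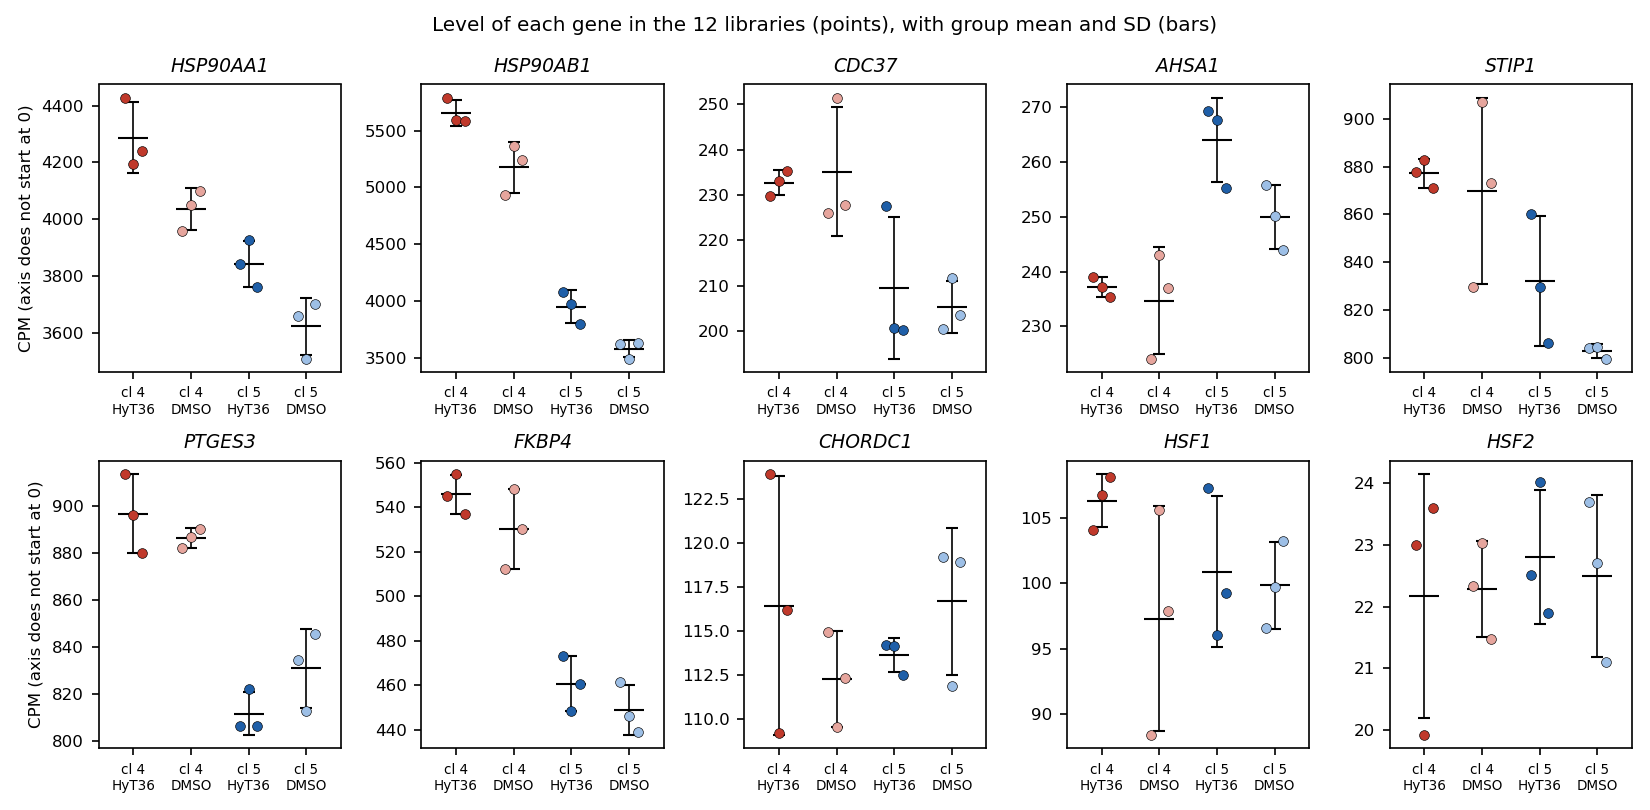
Level of each of the 10 genes in CPM (y axes, which do not start at 0) in the 3 libraries of each group (points), with the group mean and SD (bars). For HSP90AA1 and HSP90AB1 the HyT36 points lie above the DMSO points in both clones. For HSP90AB1 the 6 clone 5 points (3489 to 4080 CPM) lie below the 6 clone 4 points (4930 to 5791 CPM).

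None of the 6 co-chaperone genes passed in either clone, and their log2 fold changes lay between -0.04 and 0.08. STIP1 (HOP), the adaptor that holds HSP70 and HSP90 together for client transfer, had 860, 830 and 806 CPM in clone 5 with HyT36, against 804, 805 and 799.6 CPM in clone 5 with DMSO. These groups did not overlap, by a gap far smaller than the spread among the HyT36 libraries (log2 fold change 0.05 ± 0.04, SE; edgeR adjusted p = 0.47). In clone 4 STIP1 averaged 877 ± 5.91 CPM with HyT36 and 870.0 ± 38.9 CPM with DMSO (SD, n = 3), with a log2 fold change of 0.01. AHSA1, which activates the HSP90 ATPase, averaged 264 ± 7.66 CPM in clone 5 with HyT36 and 249.9 ± 5.87 CPM in clone 5 with DMSO (SD, n = 3). Its log2 fold change there was 0.08 ± 0.04 (SE; edgeR adjusted p = 0.22), against 0.01 ± 0.04 in clone 4 (edgeR adjusted p = 0.89). FKBP4, the immunophilin FKBP52 of steroid receptor complexes, had nearly the same log2 fold change in both clones, 0.04 ± 0.04 each (SE; edgeR adjusted p = 0.58 in clone 4 and 0.62 in clone 5).

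CDC37, which brings protein kinases to HSP90, had log2 fold changes of -0.02 ± 0.04 in clone 4 and 0.03 ± 0.05 in clone 5 (SE; edgeR adjusted p = 0.90 and 0.78). In each clone 1 library stood above the other 5, DMSO replicate 2 at 251 CPM in clone 4 and HyT36 replicate 1 at 228 CPM in clone 5. PTGES3 encodes p23, which stabilises the closed ATP-bound clamp, and had the narrowest intervals of the 10 genes. Its 95% interval ran from -0.05 to 0.08 in clone 4 and from -0.10 to 0.03 in clone 5. CHORDC1, a CHORD-domain co-chaperone also called morgana, carried the most heat shock element letters in its window and did not pass in either clone. It had 124, 109 and 116 CPM in clone 4 with HyT36, against 115, 109.5 and 112 CPM in clone 4 with DMSO. Its levels in clone 5 were 114, 114 and 113 CPM with HyT36 and 119, 112 and 119 CPM with DMSO. The groups overlapped in both clones, and the log2 fold changes were 0.05 ± 0.04 and -0.04 ± 0.04 (SE; edgeR adjusted p = 0.56 and 0.69 in clones 4 and 5).

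HSF1, the main heat shock factor, is controlled largely at the level of the protein, by trimerisation and phosphorylation. Its mRNA had 104, 107 and 108 CPM in clone 4 with HyT36, against 88.4, 106 and 97.9 CPM in clone 4 with DMSO. DMSO replicate 2 lay within the range of the HyT36 libraries, so the groups overlapped, and DMSO replicate 1 was the lowest of all 12 libraries. The log2 fold change of 0.13 ± 0.05 (SE; edgeR adjusted p = 0.15) was as large as that of HSP90AB1 but did not pass. It was 0.06 without DMSO replicate 1 (edgeR adjusted p = 0.54), 0.20 without DMSO replicate 2 (0.017), 0.28 within the clone 4 and clone 5 libraries with epithelial transcripts (5.7e-04) and 0.03 within the others (0.94). In clone 5 HSF1 had 107, 96.1 and 99.2 CPM with HyT36 and 96.6, 99.7 and 103 CPM with DMSO, which overlapped fully (log2 fold change 0.01 ± 0.05, SE; edgeR adjusted p = 0.92). HSF2, a related factor that can form mixed trimers with HSF1, was the lowest of the 10 in reads, at 516 to 638 per library. It had log2 fold changes of -0.01 ± 0.07 in clone 4 and 0.02 ± 0.07 in clone 5 (SE; edgeR adjusted p = 0.97 and 0.92). Its 95% intervals reached from -0.15 to 0.14 in clone 4 and from -0.13 to 0.17 in clone 5.

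**Figure D3:**
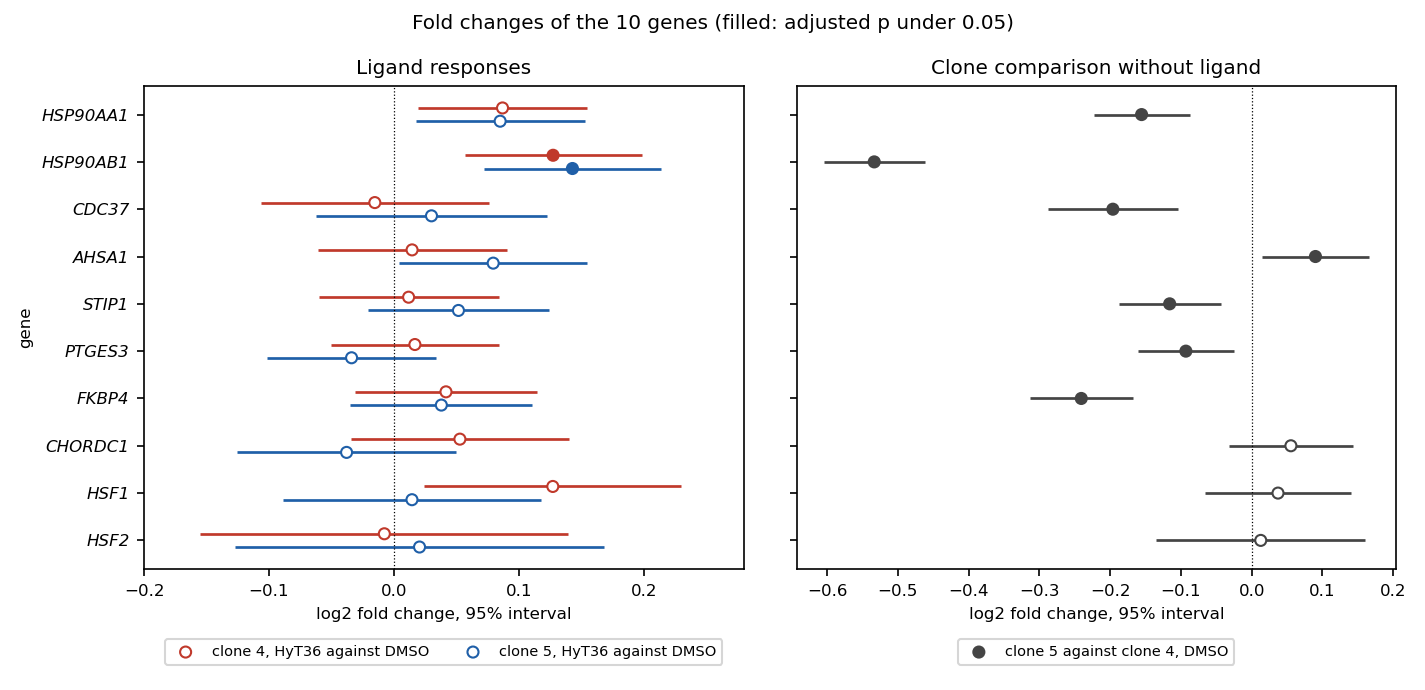
Log2 fold change (points) and 95% interval (lines) of each gene (rows), for HyT36 against DMSO in clone 4 (red) and clone 5 (blue) on the left, and for clone 5 against clone 4 with DMSO on the right. Filled points have an edgeR adjusted p under 0.05. On the left only HSP90AB1 is filled, at 0.13 and 0.14, and on the right 7 of 10 are, led by HSP90AB1 at -0.53.

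The response to HyT36 was compared between the clones by the difference of the log2 fold changes, clone 5 minus clone 4. By edgeR, by DESeq2 and by limma-voom 0 of the 10 genes passed, and none had an unadjusted edgeR p under 0.05, where 0.302% of all genes tested were called. For HSP90AB1 the responses were 0.14 in clone 5 and 0.13 in clone 4, and the difference of 0.02 ± 0.05 (SE) had a 95% interval of -0.08 to 0.12. For HSP90AA1 they were 0.09 and 0.09, with a difference of -0.00 ± 0.05 (SE) and an interval of -0.10 to 0.09. The difference farthest from 0 among the 10 was that of HSF1, with responses of 0.01 in clone 5 and 0.13 in clone 4 (-0.11 ± 0.07, SE; edgeR adjusted p = 0.73). These intervals do not show that the clones responded alike.

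An average of both clones' responses was added after the values of each clone were seen. HSP90AB1 rose by 0.14 ± 0.02 (SE; edgeR adjusted p = 1.1e-04) and HSP90AA1 by 0.09 ± 0.02 (SE; edgeR adjusted p = 0.0094). Each was higher in 6 of 6 HyT36 libraries than in all DMSO libraries of the same clone. Of all genes tested, 11.7% were higher without overlap in clone 4 and 11.4% in clone 5. The share that was so in both clones was not computed. The other 8 genes did not pass, the nearest being HSF1 at 0.07 ± 0.04 (SE; edgeR adjusted p = 0.20). This is 2 of 10 genes, where 14.7% of all genes tested were called (6.65% higher and 8.03% lower). Without clone 5 DMSO replicate 2 HSP90AA1 did not pass (0.07; edgeR adjusted p = 0.052), and without clone 4 DMSO replicate 2 HSF1 did (0.11; edgeR adjusted p = 0.024).

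The balance of both HSP90 genes was measured within each library as the ratio of HSP90AA1 to HSP90AB1 reads, which needs no scaling between libraries. Its size is not a ratio of molecules, since the transcripts differ in length, and only its change between libraries is read. It was 0.765, 0.750 and 0.759 in clone 4 with HyT36, against 0.803, 0.755 and 0.783 in clone 4 with DMSO. In clone 5 it was 0.942, 0.989 and 0.991 with HyT36 and 1.01, 1.01 and 1.02 with DMSO. The clone 5 groups did not overlap, and in clone 4 DMSO replicate 2 lay within the HyT36 range. On the log2 scale the ratio was lower with HyT36 by 0.05 on average over both clones (-0.05; exact permutation test within clones, two-sided, 400 arrangements, p = 0.015). In clone 5 the ligand and the epithelial transcripts cannot be told apart here either. In clone 4 the highest ratio was that of DMSO replicate 1, the DMSO library with these transcripts. Among clone 4 libraries with few of them, HyT36 replicate 1 (0.765) lay between DMSO replicates 2 and 3 (0.755 and 0.783). The ratio was not tested with these transcripts as a covariate. Within a single clone 3 libraries against 3 cannot give a p under 0.1, and the exact p was 0.3 in clone 4 (-0.04) and 0.1 in clone 5 (-0.06).

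The ratio differed more between the clones than between treatments. It averaged 0.974 ± 0.0279 in clone 5 and 0.758 ± 0.00729 in clone 4 with HyT36, and 1.01 ± 0.00794 in clone 5 and 0.780 ± 0.0238 in clone 4 with DMSO (SD, n = 3). Every clone 5 library stood above every clone 4 library. Clone 5 minus clone 4 was 0.37 on the log2 scale (exact permutation test within treatments, two-sided, p = 0.005, the smallest that 400 arrangements allow).

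**Figure D4:**
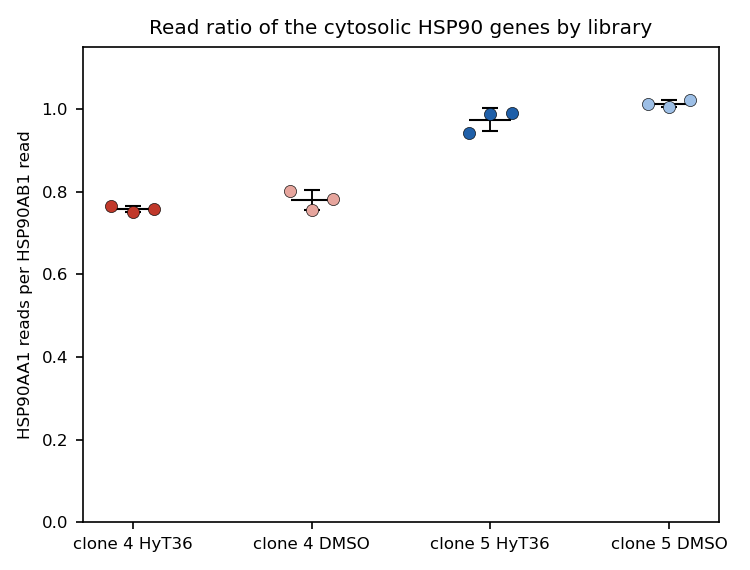
HSP90AA1 reads per HSP90AB1 read in each of the 12 libraries (points; y axis from 0), with the mean and SD of each group (bars). The clone 5 libraries lie between 0.942 and 1.02 and the clone 4 libraries between 0.750 and 0.803, and the HyT36 mean is below the DMSO mean in both clones.

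Without ligand the clones differed in most of these genes, as they did in most genes of the table. Of the 10, 6 were lower and 1 was higher in clone 5 than in clone 4, where 55.5% of all genes tested were called (28.2% lower and 27.3% higher). The clone 5 and clone 4 libraries did not overlap in these same 7 genes, against 29.9% of all genes without overlap and lower in clone 5, and 29.8% higher. The median log2 difference of the 10 was -0.10, against 0.00 over all genes tested. The largest difference was that of HSP90AB1, at 3577 ± 75.7 CPM in clone 5 and 5177 ± 223 CPM in clone 4 with DMSO (SD, n = 3). Its log2 difference was -0.53 ± 0.04 (SE; edgeR adjusted p = 1.4e-16), several times the response to HyT36 in either clone. HSP90AA1 was lower by a smaller step, at 3623 ± 101 CPM in clone 5 and 4036 ± 72.4 CPM in clone 4 (SD, n = 3; log2 difference -0.16 ± 0.03, SE; edgeR adjusted p = 1.3e-04). Fewer cells with a transcript and less of it per cell cannot be told apart in bulk RNA.

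Among the co-chaperones FKBP4 had the largest difference, with 461, 446 and 439 CPM in clone 5 with DMSO, against 512, 548 and 530.2 CPM in clone 4 with DMSO. The groups stood well apart (log2 difference -0.24 ± 0.04, SE; edgeR adjusted p = 3.2e-07). CDC37 had 201, 212 and 203 CPM in clone 5, against 226, 251 and 228 CPM in clone 4, also without overlap (-0.20 ± 0.04, SE; edgeR adjusted p = 4.4e-04). STIP1 averaged 803 ± 2.79 CPM in clone 5 and 870.0 ± 38.9 CPM in clone 4 (SD, n = 3; log2 difference -0.12 ± 0.04, SE; edgeR adjusted p = 0.0056). PTGES3 averaged 831 ± 16.8 CPM in clone 5 and 886 ± 4.23 CPM in clone 4 (SD, n = 3; -0.09 ± 0.03, SE; edgeR adjusted p = 0.017). Of the 7 genes called, AHSA1 was the exception in direction.

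AHSA1 had 256, 250.1 and 244 CPM in clone 5 with DMSO, against 224, 243 and 237 CPM in clone 4 with DMSO. The clone 5 libraries were all higher, by a narrow gap, and the log2 difference was 0.09 ± 0.04 (SE; edgeR adjusted p = 0.039). CHORDC1 averaged 117 ± 4.15 CPM in clone 5 and 112 ± 2.72 CPM in clone 4, and HSF1 99.8 ± 3.31 and 97.3 ± 8.63 CPM (SD, n = 3). HSF2 averaged 22.5 ± 1.31 CPM in clone 5 and 22.3 ± 0.778 CPM in clone 4 (SD, n = 3). For these 3 genes the groups overlapped and the test did not pass (log2 differences 0.06, 0.04 and 0.01; edgeR adjusted p = 0.28, 0.56 and 0.89). Among DMSO libraries with epithelial transcripts, 3 of clone 5 and 1 of clone 4, STIP1 (-0.04; edgeR adjusted p = 0.40) and PTGES3 (-0.08; 0.097) did not pass and HSF1 did (0.18; 0.0054). AHSA1 did not pass without clone 4 DMSO replicate 1 (0.06; edgeR adjusted p = 0.24) or 3, clone 4 HyT36 replicate 2 or 3, or clone 5 DMSO replicate 1 or 2, nor did STIP1 without clone 4 DMSO replicate 2 (-0.08; 0.072) or PTGES3 without clone 4 DMSO replicate 3 or clone 5 DMSO replicate 2. AHSA1 also did not pass with DESeq2 size factors (edgeR adjusted p = 0.056), without the filter on low counts (0.062) or with the replicate block (0.056), and PTGES3 did not without that filter (0.063) or with the epithelial covariate (0.058).

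Ordered by mean level, HSP90AB1 and HSP90AA1 ran clone 4 with HyT36, clone 4 with DMSO, clone 5 with HyT36 and clone 5 with DMSO. For HSP90AB1 no neighbouring pair of groups in that order overlapped. The same held for HSP90AA1, where the lowest clone 4 DMSO library (3957 CPM) was close above the highest clone 5 HyT36 library (3925 CPM). The share of all genes tested with such an order was not computed, so these genes are not set apart from the background by it. FKBP4 and STIP1 had the same order of means, but in both genes the HyT36 and DMSO groups of clone 4 overlapped, as did those of FKBP4 in clone 5 and the neighbouring clone 4 DMSO and clone 5 HyT36 groups of STIP1.

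The genes around these 10 were described by lists chosen with earlier results of these data known. Genes known to be driven by HSF1, outside the 10, held the most calls of these lists. Of 19 tested, 9 rose and 0 fell in clone 4, with a median log2 fold change of 0.09, and 6 rose and 0 fell in clone 5, with a median of 0.06. That is 47.4% of the list in clone 4 and 31.6% in clone 5, where 5.57% and 8.19% of all genes tested were called. Those with the smallest p in clone 4 were the HSP40 gene DNAJB1 (0.76 ± 0.04), the inducible HSP70 genes HSPA1B (0.81 ± 0.06) and HSPA1A (0.64 ± 0.05), the constitutive HSP70 gene HSPA8 (0.35 ± 0.03), the HSP40 gene DNAJB4 (0.49 ± 0.07) and DNAJA1 (0.15 ± 0.04) (SE; edgeR adjusted p = 1.2e-16, 4.6e-13, 1.2e-11, 1.6e-09, 1.8e-06 and 0.018). In clone 5 they were HSPA8 (0.35 ± 0.03), HSPA1B (0.52 ± 0.06), DNAJB4 (0.49 ± 0.07), DNAJB1 (0.30 ± 0.04) and HSPA1A (0.37 ± 0.06) (SE; edgeR adjusted p = 3.0e-09, 2.3e-07, 2.0e-06, 5.9e-06 and 1.9e-05). These calls passed under all alternatives run except that of DNAJA1. DNAJA1 did not pass without clone 4 DMSO replicate 1 (edgeR adjusted p = 0.063), HyT36 replicate 1 (0.18) or HyT36 replicate 3 (0.050). Its log2 fold change was 0.19 within the libraries with few epithelial transcripts, where it did not pass either. Reads of the near-identical HSPA1A and HSPA1B may be split between them wrongly. The response of HSP90AB1 was thus below those of these HSP70 genes in both clones. DNAJB1 was the 1 gene of the list whose difference of responses passed the test (clone 5 minus clone 4, -0.46 ± 0.06, SE; edgeR adjusted p = 2.0e-05). With DNAJB1 included, 5 of the 19 had an unadjusted edgeR p under 0.05 for this difference, so the other genes are not shown to respond alike.

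Of 29 other HSP90 co-chaperones and their partners tested, 1 rose and 0 fell in clone 4. The riser was TTI1, a partner of TELO2 in the assembly of PI3K-related kinases (0.17 ± 0.05, SE; edgeR adjusted p = 0.024). In clone 5, 2 rose and 2 fell. These are 3.45% of the list in clone 4 and 13.8% in clone 5, against 5.57% and 8.19% of all genes tested, which so few genes cannot be set apart from. The log2 fold changes ran from -0.19 to 0.17 in clone 4 and from -0.91 to 0.30 in clone 5. Both lower ends were those of ITGB1BP2, which had few reads (mean log2 CPM 0.01), an SE of 0.33 in each clone and no call. The rises in clone 5 were those of FLCN (0.30 ± 0.07) and its partner FNIP1 (0.29 ± 0.08), which slows the HSP90 ATPase, and the falls those of the tetratricopeptide genes SGTA (-0.14 ± 0.04) and TTC4 (-0.17 ± 0.05) (SE; edgeR adjusted p = 0.0040, 0.0089, 0.014 and 0.025). All 5 of these calls were lost under some alternative. TTI1 did not pass without clone 4 DMSO replicate 2 or 3 or any of the 3 clone 4 HyT36 libraries. Nor did it pass within either set of libraries split by epithelial transcripts, at 0.18 with few and 0.15 with many. SGTA did not pass without clone 5 DMSO replicate 2 or 3 or HyT36 replicate 2 or 3. TTC4 did not without clone 5 DMSO replicate 3 or HyT36 replicate 1 or 3, nor FNIP1 without clone 5 DMSO replicate 3 (edgeR adjusted p = 0.055). With the epithelial marker sum as a covariate FLCN (edgeR adjusted p = 0.12), SGTA (0.060) and TTC4 (0.064) did not pass, and TTC4 did not without the filter on low counts (0.076). The median log2 fold change was 0.04 in clone 4 and 0.00 in clone 5, and none of the 29 differed between the clones in its response by edgeR (2 at an unadjusted p under 0.05). Of the HSP90 paralogs of other compartments, the mitochondrial TRAP1 rose in clone 5 (0.13 ± 0.04, SE; edgeR adjusted p = 0.039) and had 0.07 in clone 4 (edgeR adjusted p = 0.36). The TRAP1 call was lost with the epithelial covariate (0.07; edgeR adjusted p = 0.50), when any clone 5 library except HyT36 replicate 3 was left out, and without clone 4 HyT36 replicate 2. The endoplasmic reticulum paralog HSP90B1 (GRP94) did not pass, at -0.00 in clone 4 and 0.09 in clone 5 (edgeR adjusted p = 0.99 and 0.11).

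Of 8 other HSF genes and HSF1 regulators tested, 1 rose in each clone and 0 fell. A share of 1 in 8 cannot be set apart from the 5.57% and 8.19% of all genes called. The gene was SIRT1, a deacetylase that prolongs HSF1 binding, in clone 4 (0.21 ± 0.04, SE; edgeR adjusted p = 8.7e-04) and CREBBP, an acetyltransferase, in clone 5 (0.20 ± 0.06, SE; edgeR adjusted p = 0.024). SIRT1 did not pass within the libraries with few epithelial transcripts, where its log2 fold change was 0.20. CREBBP did not pass without clone 5 DMSO replicate 1 or 3 or any of the 3 clone 5 HyT36 libraries. HSF5 and HSFX1 did not have enough reads to be tested. Of 26 HSP90 client genes tested, RIPK1, a kinase of death receptor signalling, fell in both clones (-0.17 ± 0.05 in clone 4 and -0.32 ± 0.05 in clone 5, SE; edgeR adjusted p = 0.039 and 6.1e-05). With 1 of 26 called in clone 4 (3.85%) and 3 of 26 in clone 5 (11.5%), the clients too were close to the shares over all genes. In clone 5 the receptor gene ERBB2 fell (-0.52 ± 0.15) and the insulin receptor gene INSR rose (0.22 ± 0.07) (SE; edgeR adjusted p = 0.021 and 0.044). The median of the clients was -0.01 in clone 4 and 0.03 in clone 5. The fall of RIPK1 in clone 5 passed under all 19 alternatives run, and that in clone 4 did not pass under 9 of 21. These were without DMSO replicate 2 or 3 or HyT36 replicate 2 or 3, and within the libraries with few epithelial transcripts (log2 fold change -0.11) or with many (-0.17). The others were with the epithelial covariate (edgeR adjusted p = 0.064), without the filter on low counts (0.065) and with the replicate block (0.052). ERBB2 had a log2 fold change of -0.17 with the epithelial marker sum as a covariate (edgeR adjusted p = 0.64) and lost its call when any clone 5 library except HyT36 replicate 2 was left out. For INSR the same was true of each clone 5 library except HyT36 replicate 1, and with the replicate block (edgeR adjusted p = 0.055).

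**Figure D5:**
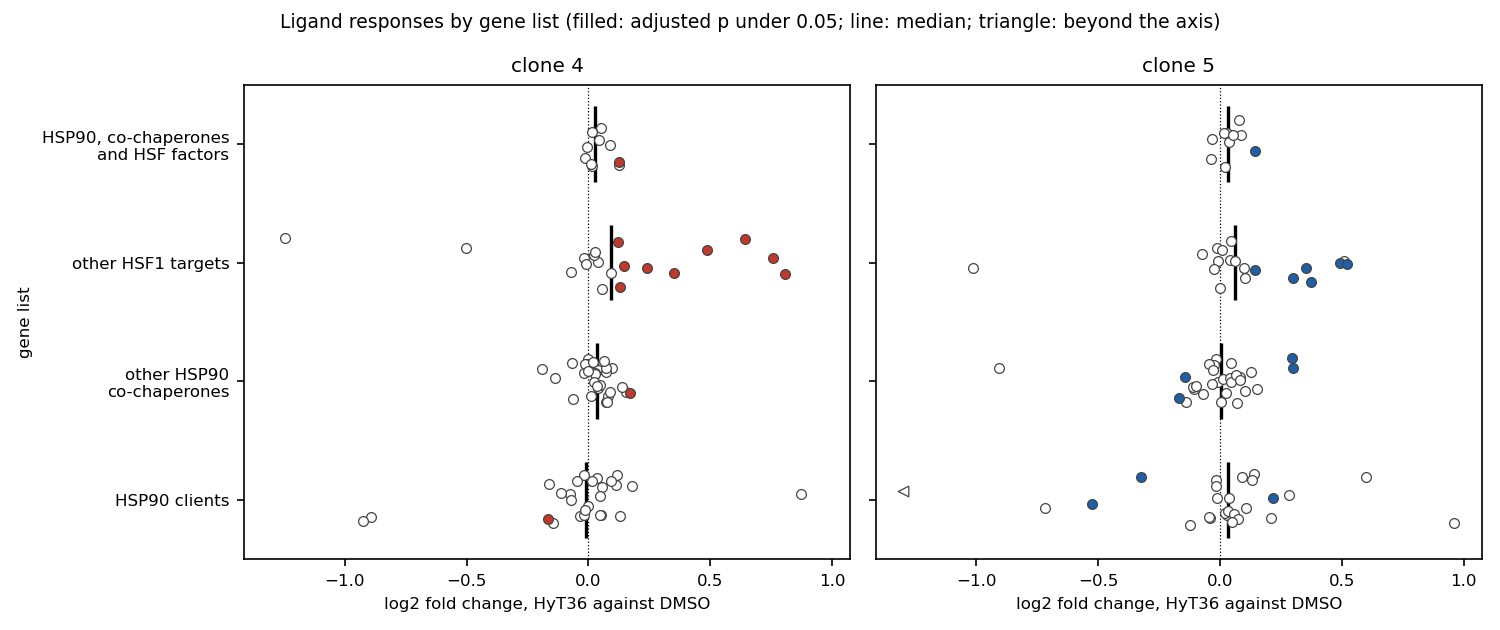
Log2 fold change with HyT36 against DMSO (x axis) of each tested gene (points) in 4 lists (rows), in clone 4 on the left and clone 5 on the right. Filled points have an edgeR adjusted p under 0.05, vertical bars are list medians and a triangle marks a value beyond the axis. The other HSF1 targets hold 9 filled points in clone 4 and 6 in clone 5, and the 10 HSP90 and HSF genes hold 1 in each.

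Between the clones without ligand 55.5% of all genes tested were called, 28.2% lower and 27.3% higher in clone 5. Of the other co-chaperones and their partners 11 of 29 were lower and 6 were higher in clone 5, and of the other HSF1 targets 9 of 19 were lower and 2 were higher. Of the clients 14 of 26 were lower and 6 were higher, and of the other HSF genes and regulators 4 of 8 were lower and 3 were higher. The called shares were 58.6, 57.9, 76.9 and 87.5% of these lists in that order. HSPA1A (-0.54 ± 0.06), HSPA1B (-0.53 ± 0.06) and HSPA8 (-0.26 ± 0.03) were lower in clone 5, as was TRAP1 (-0.36 ± 0.04) (SE; edgeR adjusted p = 9.1e-11, 2.4e-09, 4.4e-08 and 4.4e-10). DNAJB1 had a log2 difference of -0.01 ± 0.04 (SE; edgeR adjusted p = 0.92).

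HSP90AB1, the 1 gene of the 10 past the threshold in a ligand response of a single clone, was compared in log2 CPM over the 12 libraries with the 9527 other genes of a mean log2 CPM of at least 3. The closest patterns were those of HSPA9, the mitochondrial HSP70 (Pearson r = 0.996), MTHFD2, a mitochondrial folate enzyme (0.993), and AP2M1, a clathrin adaptor subunit (0.993). Among the 10 genes its closest partners were FKBP4 (r = 0.975) and HSP90AA1 (0.944), and AHSA1 ran opposite to it (-0.651). These 12 points share 2 clones, whose difference in HSP90AB1 is larger than that of the treatments, so the values describe the clone difference above all and carry no test.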

How the data were processed

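Bulk polyA RNA libraries were made with a NEBNext Ultra II kit, per the labels' protocols. The authors deposited 1 table of raw counts with no scaling, which holds 36601 genes, 22344 guides and 4 summary entries. Cell Ranger 7 and GRCh38 come from the submitters' processing notes. No source used here names the aligner or the strand setting, so reads of overlapping genes cannot be told apart. Guide and summary entries stayed out of library sizes and tests, and genes took 82.4 to 83.9% of deposited counts.

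Tests used edgeR 4.0.16 in R 4.3.3: filterByExpr by group, TMM scaling, 4 group means over all 12 libraries, robust quasi-likelihood F-tests, and Benjamini-Hochberg adjustment over 14892 genes with a threshold of 0.05. Each SE is approximate, the log2 fold change over the root of the F statistic. Alternatives were DESeq2 1.42.0, limma-voom 3.58.1, other scaling, filter, samples and covariates, and each library left out. Replicate libraries differed by more than sampling noise. The code was tested on simulated counts. The 10 genes and the lists were chosen with earlier results of these data known. Of each other list, genes past the threshold in a ligand response were named, up to 6 with the smallest p per clone (1 is not reported here), and for the gene past it among the 10, the 3 closest patterns. Promoter windows, coordinates and positions are from RefSeq on GRCh38.p14, matched by symbol.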

Additional observations from a re-analysis of the deposited data

Results flagged for a closer look

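The response of DNAJB1, the HSP40 gene among the other HSF1 targets, differed between the clones. Its log2 fold change with HyT36 was 0.30 ± 0.04 in clone 5 and 0.76 ± 0.04 in clone 4, and the difference, clone 5 minus clone 4, was -0.46 ± 0.06 (SE; edgeR adjusted p = 2.0e-05). The difference lay between -0.50 and -0.42 under the 18 alternatives run and passed the threshold in each.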

How the results depend on the processing

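The clones' difference in HSP90AB1, HSP90AA1, CDC37 and FKBP4 kept its direction and passed under all 20 alternatives, with 5 to 7 of the 10 genes called against 7. In clone 4 the count of 1 was 0 with the replicate block (HSP90AB1 0.13; edgeR adjusted p = 0.057) and within libraries of KRT19 under 1 CPM, 2 within the others, with the epithelial covariate, with limma-voom and with DESeq2, and 0 to 2 with a library left out. In clone 5 the count of 1 was 0 with that covariate, 2 with limma-voom and with DESeq2, and 1 to 2 with a library left out. The averaged response had 2, and 1 to 3 with a library left out. No alternative called a difference of responses among the 10. The ratio of the HSP90 genes, -0.05, was -0.06 to -0.04 with a library left out, -0.041 in clone 4 alone (exact p = 0.3) and -0.057 in clone 5 alone (exact p = 0.1). Same-numbered replicates did not deviate together (correlations of -0.54 to -0.01), so the block pairs only numbers, and it changed no count but those of clone 4 and of the clone comparison (6).

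Over all genes, the clone 4 count of 830 was 287 within libraries of KRT19 under 1 CPM and 409, 532 and 545 without HyT36 replicate 3, 2 and 1. The clone 5 count of 1219 was 755 without DMSO replicate 1. The 45 differences of response were 169 without the filter, 265 with the epithelial covariate, 140 without clone 4 DMSO replicate 1, and 25, 27 and 29 without clone 5 HyT36 replicate 1, clone 4 HyT36 replicate 2 and clone 5 HyT36 replicate 2. The split by KRT19 leaves 1 clone 4 library in an arm, which is assumed to vary like the others, and cannot be made for clone 5. The cause of these changes was not tested.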
